A study of Mus musculus with 19 samples.

Results

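Homeobox genes outside the Hox clusters were followed in sorted glial lineage cells of the mouse, from neural crest stem cells at E9.5 to Schwann cells at birth. The members were all probe sets whose single annotated gene symbol begins with a family name (Lhx, Msx, Meis, Pbx, Nkx, Irx, Emx, Otx, Pitx, Prrx, Phox2, Alx, Isl, Lmx, Dlx, Pou, Hmx, Zfhx, Vax, En, or the sine oculis name of Six4 and its relatives) followed by a digit, with Dlx1, Dlx2 and Pou3f1 left out. This gave 68 of the 12488 probe sets of the array, for 57 genes. Probe sets were matched by symbol alone, so 3 of them are for non-coding RNAs beside Dlx genes (Dlx1as and Dlx6os2). Pou2af1, a coactivator of POU factors rather than a homeobox gene, is likewise among the members. Phox2a, whose symbol has a letter after Phox2, is not among them, and the names Emx, Otx and Phox2 matched no probe set.

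The cells carried green fluorescent protein driven by the promoter of the proteolipid protein gene Plp, which labels crest stem cells first and glia afterwards, and this transgene was present in every group. At E9.5 the labelled cells came from the dissected trunk (3 arrays). The later cells came from the sciatic nerve: Schwann cell precursors at E12 (3 arrays), then E14 (3), E16 (4), E18 (3) and newborn P0 (3). E12 against E9.5 therefore compares both a stage and a body region. Values are expression indices in units of probe intensity, and any value under 68.5 (the 25th percentile) was raised to 68.5, called the floor, before taking log2. A fold is called "at least" where an array of the lower stage lay at the floor. On the 14 probe sets that did not pass the filter below, no test was run. Because probe sets differ in how strongly they bind, no level of one is set against another.

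Homeobox genes encode transcription factors that bind DNA through a homeodomain and give cells regional or lineage identity. Some families work through partners: the TALE proteins (Pbx, Meis) bind DNA together with Hox proteins, LIM homeodomain proteins (Lhx, Isl, Lmx) act in complexes with the adaptor Ldb1, and sine oculis proteins such as Six4 act with Eya cofactors. In the peripheral nerve the POU factors Pou3f1 and Pou3f2 are known for their part in the timing of Schwann cell myelination.

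As a group, the homeobox probe sets had a range over the stages near or under that of all probe sets. Of the 68, 54 passed the filter (above the floor on 3 arrays or more), or 79.4%, beside 83.8% of all probe sets. Those 54 stand for 49 genes. The difference between the highest and the lowest stage mean had a median of 0.58 on the log2 scale over the 54, beside 0.68 over all 10414 probe sets tested. It exceeded 1 for 12 of them (22.2%, beside 30.9% of all) and was under 0.5 for 19 (35.2%, beside 33.3% of all). By a moderated F-test over the 6 stages in limma, 12 members were called at an adjusted p under 0.05, or 22.2%, where 29.0% of all probe sets were called. Over the 5 nerve stages it called 5, or 9.26%, where the share of all was 13.1%. In these fits the members' shares lay under the background. A test of some kind was passed by 15 probe sets of 13 genes, and the share of all probe sets that did so was not counted. Without P0 replicate 4 the F-tests called 20 and 13 members (37.0% and 24.1%, beside 37.6% and 22.7% of all probe sets). Without E12 replicate 4 the nerve F-test called 3 (5.56%, beside 11% of all). With quality weights on the arrays, from 0.22 for P0 replicate 4 to 7.82 for E18 replicate 2, they called 30 and 28 (55.6% and 51.9%, beside 62.0% and 50.9% of all).

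**Figure D1:**
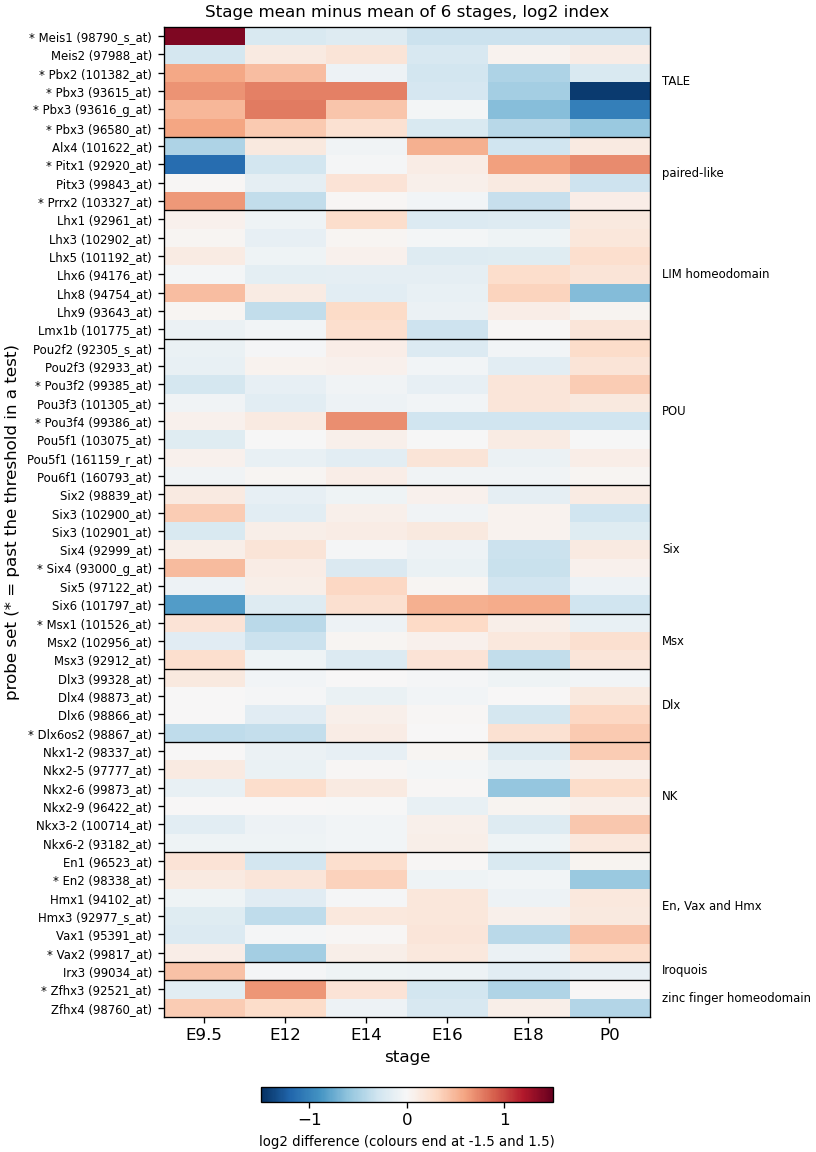
Mean log2 index of each of the 54 tested members at each stage (columns), minus its own mean over the 6 stages, grouped by family. Red is higher and blue lower; asterisks mark the 15 probe sets past the threshold in a test. Most rows are pale, and the strongest colours belong to Meis1, Pbx3, Pitx1 and Six6.

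**Figure D2:**
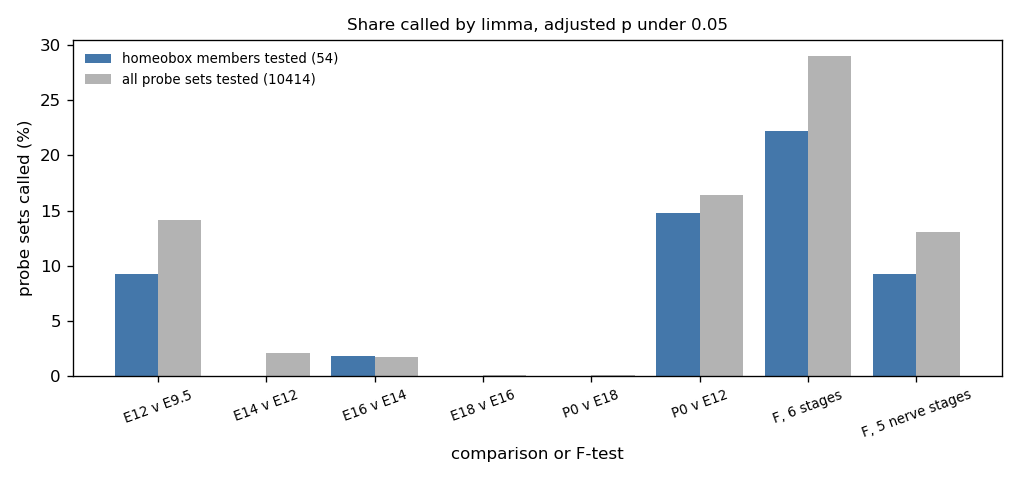
Percentage of probe sets called by limma (adjusted p under 0.05, y axis) for each comparison and F-test (x axis), among the 54 homeobox members tested (blue) and all 10414 probe sets tested (grey). The blue bar is above the grey one only for E16 against E14, where it stands for 1 probe set (1.85% beside 1.69%).

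Array medians ran from 173.5 to 206.9, and the GAPDH 3'/5' signal, a sign of shortened RNA when high, from 2.33 to 9.12. It was 2.33 to 3.41 at E9.5, 3.18 to 4.53 at E12 and 4.69 to 7.69 at P0, so every P0 array lay above every E12 array. E16 replicates 1 and 2 and P0 replicate 1, all of lot 1, stand apart: P0 replicate 1 was closest to E16 replicate 1 (rank correlation 0.952) and had 0.894 with P0 replicate 4, which was itself closest to E16 replicate 4. Sox10, a transcription factor of crest and glia, had stage means of 1381 to 2340, and Erbb3, the neuregulin receptor subunit of Schwann cells, of 1772 to 3898. These are 2 of the crest and Schwann markers, and their levels do not tell crest from glia. S100b, another glial marker, was at the floor on all E9.5, E12, E14 and E16 arrays. Of 11 crest and Schwann markers 5 rose and 0 fell from E9.5 to E12 (summed index 5530 to 6878 and 18023 to 22599). From E12 to P0 3 rose and 3 fell (14852 to 28232 at P0). For this and the following marker lists, the shares of all probe sets were 9.70% up and 4.41% down at E12, and 4.53% up and 11.8% down from E12 to P0. Each summed index adds 1 probe set for every list gene on the array, those not tested included. Markers of other cells moved too. Of 6 macrophage markers tested 4 rose from E9.5 to E12 (summed index 1071 to 1283 at E9.5, 1972 to 3993 at E12) and 3 fell by P0 (1045 to 1337). Of 10 fibroblast markers, mostly matrix genes, 3 rose at E12 (1466 to 2165 at E9.5, 10925 to 12457 at E12) and 3 rose from E12 to P0 (21422 to 28034). Of 10 neuronal markers tested 1 rose at E12 (2857 to 2959 and 2752 to 3144), while 1 rose and 1 fell by P0 (2970 to 3272). Their Elavl4, Snap25 and Syt1 did not pass the filter. Of 6 somite and mesoderm markers 1, Twist1, fell at E12 (1118 to 1952 and 1117 to 1259). Of 9 muscle markers 0 were called by limma in either comparison, with 1 and 1 at an unadjusted p under 0.05 (2857 to 3754 at E9.5, 2979 to 4156 at E12 and 2355 to 3950 at P0). Of 7 neural tube markers 2 rose at E12, Sox2 and Fabp7, which glia also express, and Neurog2 fell to the floor (summed index 4785 to 5375 at E9.5, 9513 to 10076 at E12), while Fabp7 fell by P0 (3759 to 6631). Of 6 endothelial markers 1, Emcn, fell at E12 (1211 to 1222 and 1309 to 1499) and 0 were called by P0 in limma (1089 to 1363). Of 5 melanocyte markers 1, Kit, fell at E12 (1714 to 2085 and 1903 to 2344) and 1, Tyrp1, rose by P0 (1855 to 2399). The part of other cells in the results below was not tested. In bulk sorts, fewer cells of a type and less RNA per cell cannot be told apart.

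Among the TALE genes, Pbx3, a partner of Hox proteins on DNA, had the largest called change of the members. All 3 of its probe sets fell from E12 to P0. On probe set 93615_at the index was 1354, 1355 and 1257 on the E12 arrays and 1319, 1280 and 1384 on the E14 arrays. At E16 it was 512, 695, 726 and 724, at E18 746, 577 and 384, and at P0 148, 325 and 511. The E9.5 arrays, at 1177, 1422 and 1154, lay with E12 and E14, and every array from E16 on lay below every earlier one. The mean of 1322 ± 55.9 at E12 became 328 ± 182 at P0 (SD over 3 arrays each), a fall of 4.54-fold (fitted log2 change -2.18, SE 0.32; limma adjusted p = 0.00021). It was -3.19 within lot 1 and -1.30 within lot 4, the lots that both stages share. On the log2 scale the SD was 0.06 at E12 and 0.91 at P0. The SE and p-value rest on the spread shared by all stages, so they may understate the spread at P0. Single intervals were not called: E16 against E14 had a log2 change of -1.01 (SE 0.30, limma adjusted p = 0.14) and P0 against E18 -0.92 (SE 0.32, limma adjusted p = 0.29), the latter -2.33 within lot 1 and -0.24 within lot 3.

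The second Pbx3 probe set, 93616_g_at, read 463, 435 and 525 at E12 and 174, 81.1 and 181 at P0. Between these it passed through 348, 331 and 434 at E14, 329, 232, 289 and 249 at E16 and 213, 206 and 129 at E18, and from E12 to E18 the arrays of neighbouring stages did not overlap. It fell 3.46-fold from 475 ± 46.2 to 145 ± 55.7 (log2 change -1.79, SE 0.27; limma adjusted p = 0.00023; within lots 1 and 4 -1.41 and -1.54). Its log2 SD was 0.14 at E12 and 0.65 at P0, so the same limit applies to its p-value. Both calls were kept under all 29 alternatives. The limma adjusted p-values ran from 8.5e-06 to 0.0029 for the first probe set and from 1.4e-05 to 0.0029 for the second. The third, 96580_at, was dim: 126, 129 and 218 at E12 and 42.7, 46.5 and 103 at P0, where 2 arrays were at the floor. Its fall was at least 1.95-fold (log2 change -0.96, SE 0.27; limma adjusted p = 0.021). That call was lost with a GAPDH covariate (adjusted p = 0.22), with the floor at the 40th percentile (0.41), without E16 and P0 lot-1 arrays (0.08), without E12 replicate 4 (0.11), without P0 replicate 1 (0.078) and without P0 replicate 3 (0.085), in a range of 0.0073 to 0.41. The 3 probe sets share a gene, so they are not separate observations.

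**Figure D3:**
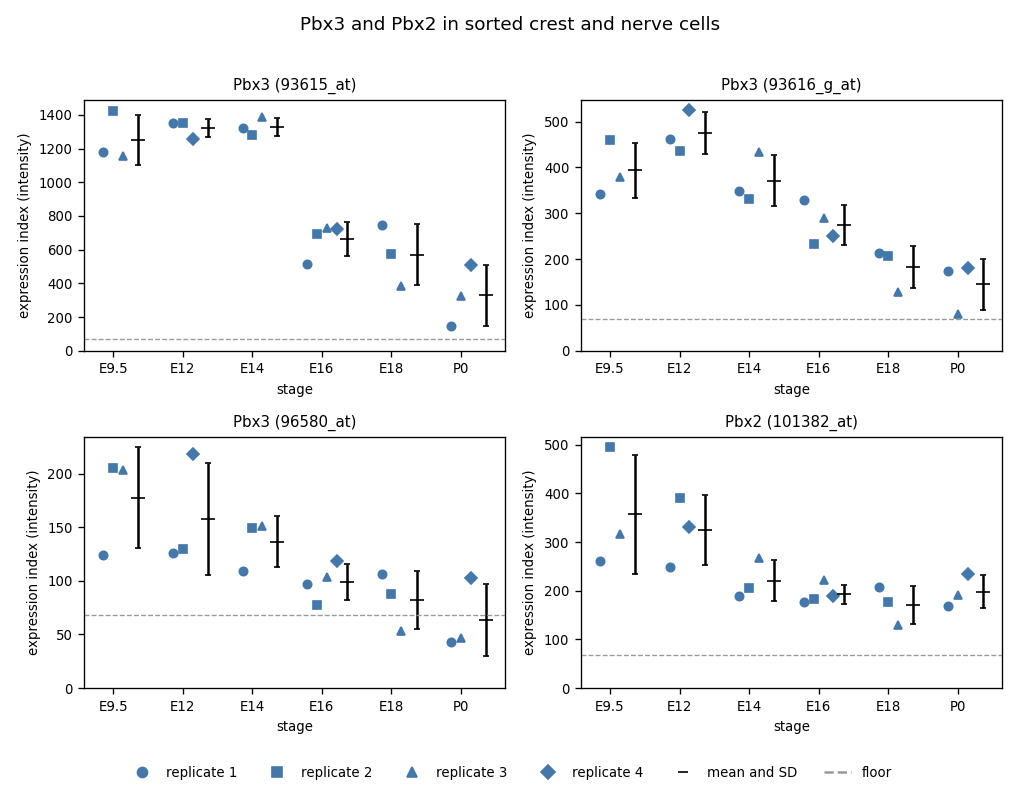
Expression index (intensity, y axis, linear from 0) on each array by stage (x axis) for the 3 Pbx3 probe sets and for Pbx2; marker shape gives the replicate, the bar the mean and SD, and the dashed line the floor of 68.5. On 93615_at the arrays of E9.5 to E14 lie at 1154 to 1422 and those of E16 to P0 at 148 to 746.

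Pbx2, a close relative of Pbx3, was called by the F-test over 6 stages (limma adjusted p = 0.012) and in no single comparison. Its means were 357 ± 122 at E9.5, 324 ± 71.7 at E12, 221 ± 41.9 at E14, 193 at E16 (178 to 222), 171 ± 39.8 at E18 and 198 ± 33.2 at P0 (SD, n = 3, or 4 at E16). P0 against E12 gave a log2 change of -0.70 (SE 0.24, limma adjusted p = 0.062), from 249, 392 and 332 to 170, 191 and 235, without overlap. The F-test over the nerve stages gave an adjusted p of 0.091.

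Meis1, whose product binds beside Pbx and Hox proteins, was highest in the E9.5 trunk cells. Its index was 254.5, 319 and 141 at E9.5 and 71.2, 66.3 and 79.4 at E12, close to the floor. All arrays from E16 on lay between 0.0 and 43.9, under the floor. The fall from E9.5 to E12 was at least 3.09-fold, from 238 ± 90.4 to 72.3 ± 6.62 (log2 change -1.63, SE 0.21; limma adjusted p = 5.3e-05), with -1.84 and -2.22 within lots 1 and 2. The SE rests on 1 spread shared by all stages, to which the floored arrays from E16 on add nothing. At E9.5 the SD was 0.61 on the log2 scale, so the SE and p-value may understate the spread of the compared arrays. The fall was called under all 29 alternatives (adjusted p from 5.1e-07 to 0.0097). The suffix of its probe set, 98790_s_at, marks probes that can match transcripts of more than 1 gene. Meis3 read 40.4 to 112 at E9.5 but was above the floor on 2 arrays in all and was not tested. Meis2, which was above the floor on all arrays, was not called (range of stage means 0.46 on the log2 scale, F-test over 6 stages, limma adjusted p = 0.36).

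E12 against E9.5 called 5 of the 54 members, or 9.26%, 2 up and 3 down. Of all probe sets 14.1% were called, 9.70% up and 4.41% down. The median log2 change of the members was -0.10, beside 0.01 over all. The count was 9 with array weights (16.7%, beside 29.2% of all), 3 without E9.5 replicate 1, 2 without E9.5 replicate 2, and 3 without any 1 of E9.5 replicate 3, E12 replicate 1 and E12 replicate 2, where 9.26% to 10.9% of all were called. Besides Meis1 the falls were those of Prrx2 and Msx1, and the rises those of Pitx1 and Zfhx3.

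Prrx2, a paired-related homeobox gene of embryonic mesenchyme, had an index of 165, 98.8 and 172 at E9.5 and 35.9, 67.3 and 72.3 at E12, with 2 of the E12 arrays at the floor. It fell at least 2.02-fold (145 ± 40.5 to 58.5 ± 19.7; log2 change -1.02, SE 0.24; limma adjusted p = 0.0095), by -1.27 and -0.53 within lots 1 and 2. On the log2 scale the SD was 0.45 at E9.5 and 0.04 at E12, where the floor narrows it. The SE and p-value may thus be too small. The call was lost without E9.5 replicate 3 (adjusted p = 0.051) and with the floor at the 40th percentile (0.13), in a range of 0.00079 to 0.13. Its relative Prrx1, a marker of limb and craniofacial mesenchyme, lay between 10.4 and 33.2 on all 19 arrays, under the floor.

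Msx1, a target of BMP signals in the dorsal neural tube and crest, was above the floor on every array. It read 445, 464 and 555 at E9.5 and 290, 307 and 357 at E12, so the arrays did not overlap, and it read 454, 456, 673 and 520 at E16. The fall to E12 was 1.53-fold (488 ± 58.9 to 318 ± 34.7; log2 change -0.62, SE 0.19; limma adjusted p = 0.039; -0.62 and -0.60 within lots 1 and 2). It was not called without E9.5 replicate 1 (adjusted p = 0.06), 2 (0.081) or 3 (0.14), E12 replicate 1 (0.15) or 2 (0.12), or E18 replicate 2 (0.052), nor with the GAPDH covariate (0.14), the replicate number as a block (0.054) or the floor at the 10th percentile (0.051), in a range of 0.0021 to 0.15. Later changes were not called, among them E16 against E14 at 0.38 (SE 0.18, limma adjusted p = 0.44).

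Pitx1, the homeobox gene known for specifying the hindlimb, rose in both of the long comparisons. At E9.5 its index was 192, 149 and 164, at E12 370, 323 and 242, at E14 410, 313 and 378.5 and at E16 386, 391, 394 and 421. It was 467, 513 and 746 at E18 and 418, 756 and 706 at P0. The stage mean was higher at each stage than at the one before, from 168 ± 21.7 at E9.5 to 627 ± 183 at P0. E12 exceeded E9.5 by 1.83-fold without overlap (log2 change 0.88, SE 0.23; limma adjusted p = 0.015; 0.95 and 1.12 within lots 1 and 2), a call lost without E9.5 replicate 2 (adjusted p = 0.072), E12 replicate 1 (0.087) or E12 replicate 2 (0.059), in a range of 0.0003 to 0.087. P0 exceeded E12 by 1.98-fold (312 ± 64.7 to 627 ± 183; log2 change 0.98, SE 0.23; limma adjusted p = 0.0072), also without overlap and called under all 29 alternatives (0.00094 to 0.043). Within lots this was 0.18 in lot 1 and 1.54 in lot 4, so P0 replicate 1 hardly exceeded E12 replicate 1. The other paired-like genes tested, Alx4 and Pitx3, were not called, with stage means of 104 to 801 and ranges of 1.00 and 0.51 on the log2 scale.

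Zfhx3, which encodes a large protein with both zinc fingers and homeodomains, was highest at E12. The arrays read 299, 338 and 350 at E9.5, 512, 546 and 704 at E12, 353, 479 and 457 at E14 and 336, 313, 282 and 287.5 at E16. E12 lay above both neighbouring stages without overlap. The rise at E12 was 1.77-fold (329 ± 26.6 to 587 ± 102; log2 change 0.82, SE 0.22; limma adjusted p = 0.019; 0.77 and 0.69 within lots 1 and 2). It was not called without E9.5 replicate 1 (adjusted p = 0.075), E9.5 replicate 2 (0.052) or E12 replicate 4 (0.085), nor with the lot (0.051) or the replicate number (0.053) as a block, in a range of 0.0037 to 0.085. Zfhx3 was also called among the nerve stages by the F-test (limma adjusted p = 0.013), while P0 against E12 missed the threshold (log2 change -0.66, SE 0.22, limma adjusted p = 0.053). Zfhx4 was not called (range 0.82).

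Six4, a sine oculis gene of muscle and sensory precursors, was called by the F-test over 6 stages on 1 of its 3 probe sets, 93000_g_at (limma adjusted p = 0.0077). That one read 568, 497 and 465 at E9.5, 343, 421 and 434 at E12 and 271 to 306 at E18, and 394, 368 and 385 at P0. Its E12 against E9.5 change of -0.36 (SE 0.16, limma adjusted p = 0.16) was not called. The probe set 92999_at was not called (F-test over 6 stages, limma adjusted p = 0.15), and 93001_at was above the floor on 1 array and not tested. The call thus rests on 1 of the 3.

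**Figure D4:**
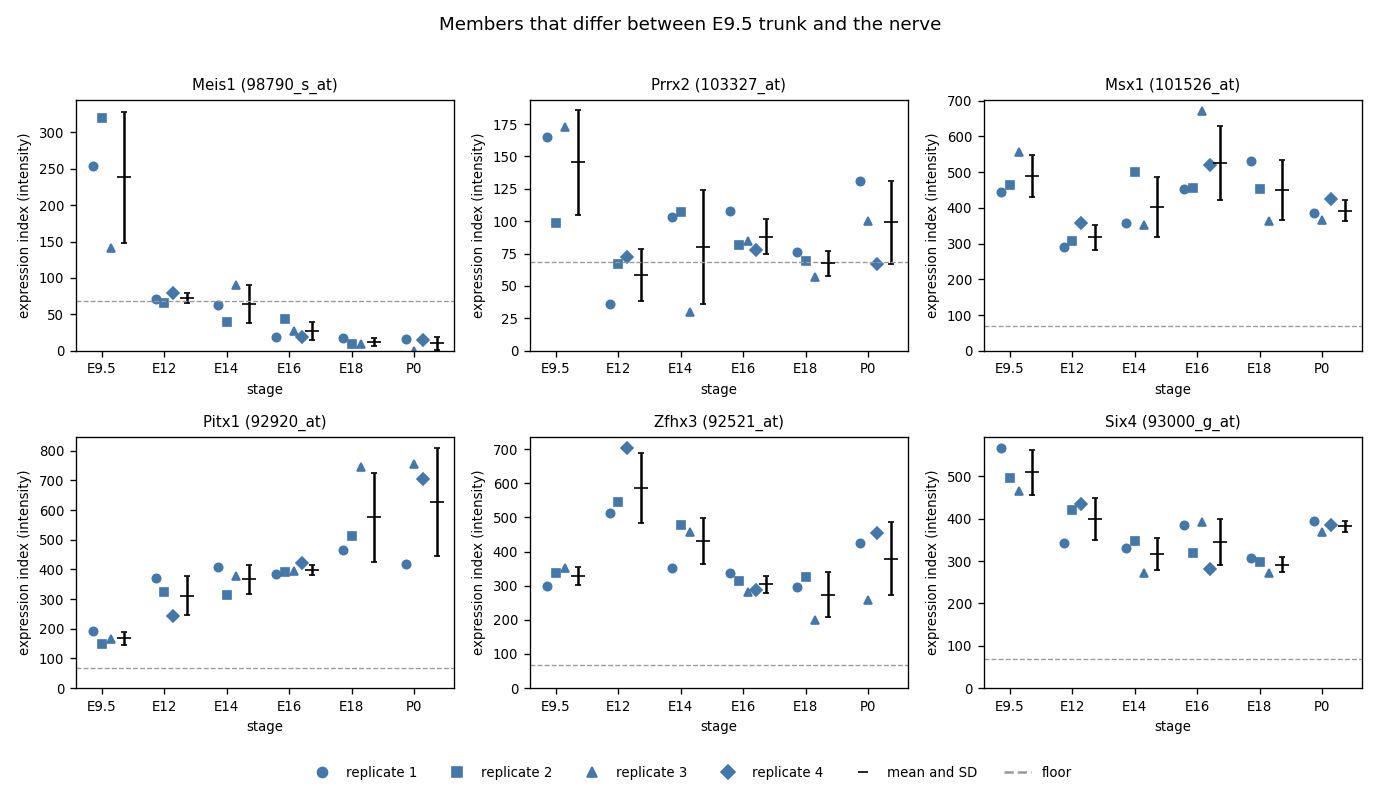
Expression index (intensity, y axis, linear from 0) on each array by stage (x axis) for 6 members; marker shape gives the replicate, the bar the mean and SD, and the dashed line the floor of 68.5. Meis1 is above 140 only at E9.5, Pitx1 is at 149 to 192 at E9.5 and 418 to 756 at P0, and Zfhx3 has its highest mean at E12.

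Within the nerve the consecutive intervals called few members. E14 against E12 called 0 of 54 (2.09% of all probe sets, 1.08% up and 1.02% down), with 7 members at an unadjusted p under 0.05 and 3 called with array quality weights (5.56%, beside 11.3% of all). E16 against E14 called 1, or 1.85%, where 1.69% of all were called, 0.586% up and 1.10% down. E18 against E16 called 0 (0.0768% of all, 0.00960% up and 0.0672% down; 6 members at an unadjusted p under 0.05, and 5 called with array weights, or 9.26% beside 11.1% of all). P0 against E18 called 0 (0.125% of all, 0.0384% up and 0.0864% down; 10 members at an unadjusted p under 0.05), but 5, or 9.26%, without P0 replicate 4 (6.88% of all) and 5 with array weights (8.31% of all). Over the whole span P0 against E12 called 8 members, or 14.8%, 4 up and 4 down, where 16.4% of all were called, 4.53% up and 11.8% down. The members' median log2 change was 0.17, beside -0.02 over all. The count was 5 without E12 replicate 2, 4 without E12 replicate 4 or P0 replicate 1, 3 without P0 replicate 3 and 15, or 27.8%, without P0 replicate 4 (26.9% of all) or with array weights (28.0% of all). The shares of all in the fits with lower counts were 10.1%, 12.8%, 11.8% and 11%, in the same order. With the GAPDH covariate it was 5 (9.26%, beside 11.6% of all), of which 1 rose and 4 fell, and without E16 and P0 lot-1 arrays it was 5 (9.43%, beside 13.6%). The 4 falls were the 3 probe sets of Pbx3 and En2, and the 4 rises Pitx1, Pou3f2, Vax2 and Dlx6os2.

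Of the POU genes, 2 relatives of the same class were called, in opposite directions and over different intervals. Pou3f2, known for acting beside Pou3f1 in Schwann cells, read 145, 130 and 148 at E12, 134, 136, 140 and 151 at E16, 171, 180 and 172 at E18 and 196, 222 and 184 at P0. Every E18 array was higher than every E16 array, and every P0 array higher than those, although neither single interval was called (limma adjusted p = 0.56 and 0.62). The rise from E12 to P0 was 1.42-fold (141 ± 9.61 to 200 ± 19.2; log2 change 0.50, SE 0.14; limma adjusted p = 0.023; 0.44 and 0.31 within lots 1 and 4). It was not called with the GAPDH covariate (adjusted p = 0.077), without E16 and P0 lot-1 arrays (0.063), without E12 replicate 1 (0.056) or 2 (0.1), or without P0 replicate 1 (0.052) or 3 (0.1), in a range of 0.0042 to 0.1.

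Pou3f4, a POU gene of the developing brain and inner ear, was above the floor on no array after E14. Its index was 124, 81.3 and 60.8 at E9.5, 48.4, 125 and 92.1 at E12 and 112, 176 and 132 at E14. All 10 arrays from E16 on lay at the floor, between 8.5 and 60.4. The fall from E14 to E16 was at least 2.00-fold (140 ± 32.7 on 3 arrays and 46.5 ± 15.9 on 4; log2 change -1.0, SE 0.21; limma adjusted p = 0.016; -0.70 and -0.94 within lots 1 and 3). Pou3f4 was the one member called in that interval. As for Meis1, its floored arrays add nothing to the shared spread, while the SD at E14 was 0.33 on the log2 scale. The SE and p-value may thus be too small. The call was lost without E14 replicate 2 (adjusted p = 0.1), without E14 replicate 3 (0.06) and without E16 and P0 lot-1 arrays (0.094) and with the lot as a block (0.052), in a range of 0.0067 to 0.1, and with the floor at the 40th percentile the probe set did not pass the filter. The count of members called in this interval was 2, or 3.70%, without P0 replicate 1 (2.10% of all) or without P0 replicate 4 (2.23% of all).

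The bases before the start of these 2 genes, in the RefSeq table for GRCm38.p6, are shown because they belong to the members of 1 POU class that were called in opposite directions. Each stretch is the 250 bases before the transcript start, on the gene's own strand, and capitals mark matches to CCAAT or GGGCGG on either strand (the CCAAT box and the GC box of core promoters). Pou3f2 is on the minus strand at chr4:22488367-22488616 and Pou3f4 on the plus strand at chrX:110814129-110814378.
Pou3f2: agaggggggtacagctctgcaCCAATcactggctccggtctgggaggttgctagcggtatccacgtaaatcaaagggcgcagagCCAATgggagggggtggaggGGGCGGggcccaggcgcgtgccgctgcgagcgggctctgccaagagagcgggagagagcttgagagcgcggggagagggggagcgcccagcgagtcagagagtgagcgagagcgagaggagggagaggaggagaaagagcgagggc
Pou3f4: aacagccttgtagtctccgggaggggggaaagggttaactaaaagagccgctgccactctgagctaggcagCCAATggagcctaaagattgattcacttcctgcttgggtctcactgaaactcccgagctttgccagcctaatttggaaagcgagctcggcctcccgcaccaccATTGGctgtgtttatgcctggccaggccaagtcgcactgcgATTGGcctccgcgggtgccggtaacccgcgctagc
The Pou3f2 stretch held 2 matches to CCAAT and 1 to GGGCGG, and that of Pou3f4 3 to CCAAT and 0 to GGGCGG. Of all 32851 promoters listed there, 33.8% held CCAAT and 32.7% GGGCGG in the same window. Neither stretch held TATAAA (12.4% of all), TGACAG, the letters bound by Meis and Tgif proteins (15.9%), TGATTNAT, those of a Pbx and Hox pair (2.82%), or TAATTA, a common homeodomain core (4.84%). These are matches of letters in a window, and for 43 of the 57 member genes the table had an entry.

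The remaining POU probe sets gave no limma call. Those of Pou2f2, Pou2f3, Pou3f3, Pou5f1 and Pou6f1 that were tested differed by 0.16 to 0.48 on the log2 scale between their highest and lowest stage, and 1 of the 6 had an unadjusted p under 0.05 in a comparison. It was that of Pou2f3, named for this after its values were seen (P0 against E18 log2 change 0.35, SE 0.13, limma adjusted p = 0.33). Both probe sets of Pou2af1 lay at or under the floor on all 19 arrays. Of 3 for Pou6f1, 1 passed the filter.

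Vax2, a homeobox gene of the ventral eye, rose from E12 to P0 by 1.72-fold (329 ± 41.2 to 569 ± 106; log2 change 0.78, SE 0.21; limma adjusted p = 0.016; 0.99 and 0.53 within lots 1 and 4). The arrays read 297, 375 and 315 at E12 and 588, 664 and 454.5 at P0, but at E9.5 they had read 517, 436 and 546. E12 was thus the low point, and E12 against E9.5 was not called (log2 change -0.60, SE 0.21, limma adjusted p = 0.065). The rise was not called with the GAPDH covariate (adjusted p = 0.092), without E16 and P0 lot-1 arrays (0.067), without E12 replicate 1 (0.07) or 4 (0.052), or without P0 replicate 1 (0.053) or 3 (0.081), in a range of 0.0053 to 0.092.

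Dlx6os2, a non-coding RNA transcribed beside Dlx6, rose 1.70-fold from E12 to P0 on 1 of its 2 probe sets. The index was 125.5, 108 and 91.5 at E12 and 216, 220.5 and 128 at P0, the arrays of the stages being apart by little (108 ± 17.0 to 188 ± 52.3; log2 change 0.77, SE 0.22; limma adjusted p = 0.025; 0.78 and 0.48 within lots 1 and 4). The call was lost with the GAPDH covariate (adjusted p = 0.2), with the floor at the 40th percentile (0.065), without E16 and P0 lot-1 arrays (0.1), without E12 replicate 2 (0.07) or 4 (0.1), and without P0 replicate 1 (0.11) or 3 (0.11), in a range of 0.0018 to 0.2. The other probe set was above the floor on 1 array. Dlx3, Dlx4 and Dlx6 were not called, with ranges of 0.22 to 0.57, and Dlx5 read 0.00 to 57.2 on all arrays, under the floor.

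En2, a homeobox gene of the midbrain and hindbrain boundary, fell 1.66-fold from E12 to P0 (284 ± 42.7 to 177 ± 66.9; log2 change -0.73, SE 0.24; limma adjusted p = 0.048; -0.37 and -0.89 within lots 1 and 4). Its arrays overlapped: 329, 278 and 244 at E12 and 254, 146 and 132 at P0. The call was lost under 18 of 29 alternatives (adjusted p from 0.0059 to 0.17), among them quantile normalization (0.12) and leaving out E9.5 replicate 2 (0.06), E12 replicate 1 (0.17), 2 (0.11) or 4 (0.057), E14 replicate 1 (0.06), any 1 E16 array (0.054 to 0.057), E18 replicate 1 (0.06), 2 (0.062) or 3 (0.057), and P0 replicate 3 (0.17) or 4 (0.12).

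**Figure D5:**
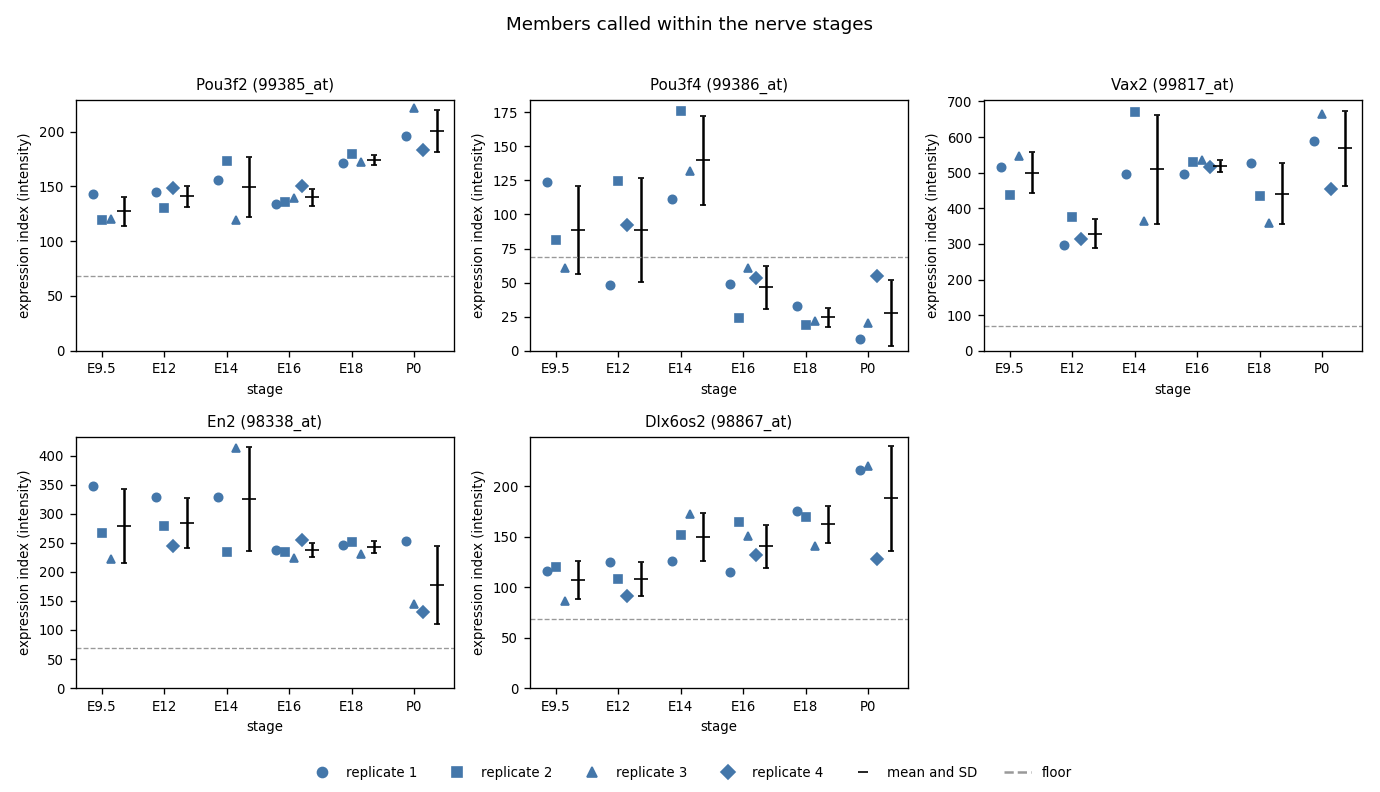
Expression index (intensity, y axis, linear from 0) on each array by stage (x axis) for 5 members called within the nerve stages; marker shape gives the replicate, the bar the mean and SD, and the dashed line the floor of 68.5. Pou3f2 is at 184 to 222 at P0, Pou3f4 is under the floor from E16 on, and the P0 arrays of Dlx6os2 and En2 are spread widely.

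The LIM homeodomain genes, which specify neuron types and limb pattern, gave no limma call. An unadjusted p under 0.05 in some comparison was found for 4 of 7 tested, and the share over all probe sets was not counted. Of 9 probe sets of 8 genes 7 passed the filter, for Lhx1, Lhx3, Lhx5, Lhx6, Lhx8, Lhx9 and Lmx1b. Their stage means ran from 59.9 to 694, and the difference between highest and lowest stage was 0.29 to 1.11 on the log2 scale. The largest was that of Lhx8, which read 333 ± 86.5 at E9.5 and 177 ± 116 at P0 (F-test over 6 stages, limma adjusted p = 0.2). Isl1, which marks sensory and motor neurons, lay at 6.33 to 54.1 on all 19 arrays, under the floor, with its highest values (40.4 to 54.1) at E9.5. A second probe set of Lhx9 was also at or under the floor on every array.

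Six6, a gene of the eye and pituitary, was not called but had the widest range of the uncalled members (1.39 on the log2 scale). It read 266 ± 79.3 at E9.5, 674 ± 29.3 at E18 and 471 to 1191 at E16 (F-test over 6 stages, limma adjusted p = 0.06). Six2, Six3 and Six5 had ranges of 0.27 to 0.68, and the 2 probe sets of Six3 were highest at different stages, E9.5 and E16. In the NK family, whose members pattern the ventral neural tube, heart and skeleton, 6 of 8 probe sets were tested and 0 called by limma in any test (2 at an unadjusted p under 0.05 in some comparison), with ranges of 0.19 to 0.86. Nkx2-2 and Nkx2-3 were under the floor on all arrays. Msx2 and Msx3 (ranges of 0.57 and 0.61), Irx3 (0.60), and En1, Hmx1, Hmx3 and Vax1 (0.34 to 0.82) were not called either. With their called relatives, 3 of 3 Msx, 1 of 1 Iroquois and 4 of 6 En, Vax and Hmx probe sets had an unadjusted p under 0.05 in some comparison. For these and the other unadjusted tallies, no share over all probe sets was counted. They are therefore not read as changes of a family. Msx2 came near the threshold for P0 against E12, without overlap of the arrays (log2 change 0.56, SE 0.19, limma adjusted p = 0.055). In all, 36 genes with a tested probe set had none called, and 8 genes had no probe set that passed the filter. The shares over all genes were not counted, so these counts are not read as results about the members.

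Partners of these families were looked at in lists of their own, 1 probe set a gene. Of 8 LIM partners tested 3 rose and 0 fell at E12 against E9.5 (9.70% of all probe sets rose), and 1 rose and 2 fell at P0 against E12 (4.53% rose and 11.8% fell). Their median log2 changes were 0.51 and -0.34, beside 0.01 and -0.02 over all. The list first held Ssbp1 too, which encodes a mitochondrial DNA-binding protein and is no LIM partner, and it was left out after its values were seen. With it, 3 of 9 fell by P0 and the medians were 0.42 and -0.35. Ldb2, the adaptor related to Ldb1, rose from 336 ± 32.5 to 1106 ± 39.0 at E12 (log2 change 1.73, SE 0.21; limma adjusted p = 2.4e-05), fell to 601 ± 41.8 at E14 and 327 ± 67.4 at E16 (adjusted p = 0.033 and 0.021), and was at 326 ± 106 at P0. Ssbp2, which stabilises Ldb proteins, rose from 592 ± 1.83 to 1512 ± 92.4 (limma adjusted p = 0.0011) and fell to 757 ± 388 at P0 (0.005). Ssbp4 rose at E12 and Lmo1 rose by P0. Ldb1 itself, Rlim, Lmo2 and Lmo4 were not called.

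Groucho corepressors, which many homeodomain proteins recruit, gave 1 rise among 4 at E12 (9.70% of all probe sets rose) and 2 falls by P0 (11.8% of all fell). The rise was that of Tle1, from 277 ± 15.8 to 773 ± 292 (log2 change 1.41, SE 0.24; limma adjusted p = 0.00073). It then fell to 318 ± 39.5 at E14 and 115 ± 23.3 at E16 and was 147 ± 25.7 at P0 (P0 against E12 log2 change -2.34, SE 0.24; limma adjusted p = 5.3e-06), while Tle4 fell by P0 (adjusted p = 0.018). Tle3 and Tle5 were not called. The list's median log2 changes were 0.43 and -0.50, beside 0.01 and -0.02 over all. Among 3 TALE relatives 1, Tgif1, a repressor of retinoid and TGF-beta responses, fell from E12 to P0, where 11.8% of all probe sets fell (523 ± 210 to 149 ± 42.8; log2 change -1.78, SE 0.28; limma adjusted p = 0.00035; list median -0.17). Pknox1 and Tgif2 were not called.

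Of 3 partners of sine oculis proteins tested, Eya2, a phosphatase, fell from 405 ± 84.0 at E9.5 to 169 ± 2.82 at E12 (log2 change -1.24, SE 0.18; limma adjusted p = 0.00013) and again at E16 against E14 (adjusted p = 0.038). Dach1, a corepressor of that network, rose from 128 ± 46.2 at E14 to 463 ± 236 at E16 (log2 change 1.77, SE 0.40; limma adjusted p = 0.029) and from E12 to P0 (adjusted p = 0.017). Eya1 was not called, and the list's medians were 0.08 at E12 against E9.5 and 0.11 at P0 against E12. At E16 against E14, 0.586% of all probe sets rose and 1.10% fell. Of 25 other homeobox genes tested, 2 rose (Zeb1 and Tlx3) and 1 fell (Gbx2) at E12, and 2 rose (Cux1 and Evx1) and 1 fell (Zeb1) from E12 to P0, with medians of 0.00 and 0.17. For both lists the shares of all probe sets were 9.70% up and 4.41% down at E12, and 4.53% up and 11.8% down by P0. Zeb1, a repressor that holds cells in a mesenchymal state, went from 207 ± 27.3 at E9.5 to 532 ± 136 at E12 and 233 ± 122 at P0 (limma adjusted p = 0.0024 and 0.0036). The leave-one-array-out and other alternatives were not run for these partner lists.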

How the data were processed

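Affymetrix arrays were hybridized with target made by 2 rounds of in vitro transcription from RNA of sorted cells. Per the labels' protocols, the authors normalized the arrays with the smoothing spline of dChip (version not given in the sources used here) and deposited model-based expression indices, which are intensities on a linear scale, with probe sensitivities from 18 arrays. The table holds 19 arrays and 12488 probe sets, 66 of them controls, which were left out. Its highest value was 13350.7, and 2363 values were 0. Probe sets were named through the annotation of the array, where 10833 carried 1 symbol. All 68 members were found in the RefSeq gene table (GRCm38.p6).

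After the floor (68.5, the 25th percentile) and log2, 10414 probe sets that exceeded the floor on 3 arrays or more were kept. The lmFit and eBayes functions of limma 3.58.1 (R 4.3.3) fitted stage means to all arrays, with 13 residual degrees of freedom. Tests were 2-sided, with Benjamini-Hochberg adjustment over all probe sets in each comparison and a threshold of 0.05. The fit was tested on simulated data. The labels do not tell whether replicate arrays are separate animals or litters. The p-values therefore measure the spread among these samples, which may be technical, and the number of arrays limits the precision.

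Members named with full values had a probe set called in a comparison or an F-test. From partner lists, members past the threshold were named. Members and lists were chosen with earlier results of these data known. Alternatives were the floor, the filter, quantile normalization, the GAPDH covariate, array weights, lot and replicate blocks, and leaving out arrays.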

Additional observations from a re-analysis of the deposited data

Results flagged for a closer look

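Of 15 probe sets examined for an array far from the others of E16, the stage with 4 arrays, 1 stood out. On the main probe set of Pbx3, 93615_at, E16 replicate 1 read 512 while the others read 695, 726 and 724, and its gap to the nearest was 0.874 of the whole range on the log2 scale, above Dixon's critical value for 4 samples. Chance flags about 1 in 20 such groups. Without E16 replicate 1 the fall of Pbx3 from E12 to P0 kept its call.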

How the results depend on the processing

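Of the called changes of single probe sets, none changed direction under the alternatives run. Counts of members were compared by size only. Their balance of rises and falls could shift, as given above for P0 against E12 with the GAPDH covariate. The calls of Meis1 (E12 against E9.5), of Pitx1 (P0 against E12) and of the brighter 2 Pbx3 probe sets (P0 against E12) were kept under every alternative, and the others were lost under at least 2. Array weights moved most counts: to 9 for E12 against E9.5, 3 for E14 against E12, 2 for E16 against E14, 5 for E18 against E16, 5 for P0 against E18, 15 for P0 against E12, 30 for the F-test over 6 stages and 28 for that over the nerve stages. With the GAPDH covariate, P0 against E12 called 5 and the nerve F-test 8. Without E16 and P0 lot-1 arrays, E16 against E14 called 0 and P0 against E12 called 5. A floor at the 40th percentile and a block for the lot each gave 0 for E16 against E14. The cause was not tested. The F-test calls of Pbx2 and Six4 were not followed singly under the alternatives.

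With the replicate number as a block, E12 against E9.5 called 3 and P0 against E12 called 9, of which 8 were shared. Under it the calls of Msx1 (adjusted p = 0.054) and Zfhx3 (0.053) were lost. Same-numbered arrays of different stages had a mean correlation of their deviations of 0.022 over 38 pairs, with 15 over 0.1, beside -0.008 for other pairs. For lots it was 0.042 over 39 pairs, with 16 over 0.1, beside -0.015. Single pairs ran from -0.382 to 0.714 by number and from -0.354 to 0.714 by lot. The means were thus near those of other pairs, but whether some arrays were paired is not settled.

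Leaving out 1 array at a time gave counts of 2 to 6 for E12 against E9.5, 0 to 0 for E14 against E12, 0 to 2 for E16 against E14, 0 to 0 for E18 against E16, 0 to 5 for P0 against E18, 3 to 15 for P0 against E12, 10 to 20 for the F-test over 6 stages and 3 to 13 over the nerve stages. The share of all probe sets called changed with the fit too, as given above for several of these fits. Counts without that share beside them are therefore not read as results about the members. Signal near the floor limits Meis1, Prrx2, Pou3f4 and the third Pbx3 probe set, whose folds are lower bounds. The p-values of these probe sets are limited too, since floored arrays lower the shared spread. This applies most to Meis1 and Pou3f4, whose arrays from E16 on all lay at the floor.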
